A study of Mus musculus with 6 samples.

Results

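The vacuolar H+-ATPase (V-ATPase), the Ragulator complex and the Rag GTPases were followed across 6 RNA-seq libraries of mouse alveolar macrophages. Members were taken by gene symbol, as those beginning with Atp6v, Atp6ap, Lamtor or Rrag that had a total of 60 or more counts over the 6 libraries. Of 16840 genes in the table, 26 had such a symbol and 25 reached that total, 19 of them V-ATPase genes and 6 Ragulator or Rag genes. All 25 also passed the filter on low counts, which kept 12340 genes for testing. The member with the fewest counts was Rragb, with a total of 118. The symbol that was left out was Atp6v1c2, an isoform of the C subunit, with 1 and 2 counts in the DON libraries, none in the GM-CSF libraries and 1 and 2 in the libraries without GM-CSF.

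The libraries formed 3 groups of 2. The first was given GM-CSF (granulocyte-macrophage colony-stimulating factor) together with an agent that the labels name only as DON, the second GM-CSF alone, and the third no GM-CSF. They are called the DON, GM-CSF and no-GM-CSF libraries here. All were wild type and taken on day 2. The cell line is given as AM, and whether the cells were primary is not stated. Nothing in the labels tells whether the replicates of a group came from separate cultures or mice. The p-values therefore measure only the spread between these libraries, which may be technical. In bulk RNA, fewer cells of a type and less RNA per cell cannot be told apart.

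The V-ATPase pumps protons into lysosomes, endosomes and phagosomes. Its cytosolic V1 sector hydrolyses ATP and its membrane V0 sector carries the protons. Ragulator tethers the Rag GTPases, heterodimers of RagA or RagB with RagC or RagD, to the lysosomal surface, where together with the V-ATPase they bring mTORC1 to the membrane when amino acids are plentiful. Several subunits have isoforms, and the d2 isoform, Atp6v0d2, is known from osteoclasts and macrophages, whereas d1 is made by nearly all cells.

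Counts per library were between 28321986 and 35196387, and over all genes a log2 fold change had a median SE of 0.08 in each comparison. Of 13 alveolar macrophage markers tested, 6 rose and 5 fell with DON over GM-CSF, where 28.8% of all genes rose and 28.8% fell. With GM-CSF over none 3 rose and 7 fell, where 27.5% of all genes rose and 29.3% fell. The 13 markers summed to between 17066 and 17135 CPM in the DON, 13542 and 13564 in the GM-CSF and 10550.3 and 11312 in the no-GM-CSF libraries. Itgax had 3931 and 4003 CPM in the DON libraries, 2987 and 3082 in the GM-CSF libraries and 3244 and 2810.3 in the no-GM-CSF libraries, while Car4, a marker of mature cells with the largest change of the 13, had 325 and 303 CPM in the DON, 661 and 652 in the GM-CSF and only 0.215 and 0.238 in the no-GM-CSF libraries. CPM are counts scaled to a common library size, with sizes adjusted by TMM, the trimmed mean of M values. Among markers of other cells, Sftpc of the lung epithelium and Col1a1 of fibroblasts were at no more than 0.0891 CPM in any library, while others were well above 0. The 3 granulocyte markers found summed to between 11.8 and 13.7 CPM in the DON, 6.85 and 7.54 in the GM-CSF and 90.2 and 93.0 in the no-GM-CSF libraries. Sums of 6 stroma and endothelium markers, nearly all from Vwf, ran from 253 to 273, from 94.7 to 105 and from 176 to 205 CPM. The 8 lung epithelium markers, mostly Cdh1, summed to between 35.9 and 36.1, 102 and 107, and 18.9 and 22.3 CPM in the same order of groups. The 6 dendritic cell markers summed to between 25.3 and 25.5, 27.66 and 28.05, and 8.64 and 8.91 CPM. The 3 lymphocyte markers found summed to at most 1.60 CPM in any library. The part of these marker transcripts in the results below was not tested.

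Promoter sequences from RefSeq, on mouse build GRCm38.p6, were matched by symbol for 18 of the 25 members. No window was found for Atp6v0d2, Atp6v0a2, Atp6v1b2, Atp6v1c1, Atp6v1g1, Atp6v1h and Lamtor3, so their promoters were not searched. Each window ran from 250 bases before the start annotated in RefSeq to 50 bases after it. Some windows lay wholly inside the gene as given in the GENCODE vM21 annotation. There Atp6v1a, on the minus strand, reaches 44139705, and Atp6v0e, on the plus strand, begins at 26663231. The E-box CACGTG, read alike on both strands and recognised by MiT/TFE factors among others, was present in the windows of 6 of the 18 genes (33.3%), namely Atp6v0b, Atp6v0d1, Atp6v0e, Atp6v1a, Rragb and Rragc. It was present for 8.09% of the 27025 genes with a window in the RefSeq table. Those include genes not expressed here, whereas the 18 had all passed the filter on low counts, so the sets are unlike. The longer palindrome TCACGTGA, which contains CACGTG, was present in 3 of the 18 (16.7%), Atp6v0d1, Atp6v0e and Atp6v1a, and for 1.12% of all genes. TTCNNNGAA, the pattern of STAT sites, was found on either strand in the windows of Lamtor2 and Rraga (11.1%) and for 9.55% of all genes. GAGGAAGT, a pattern of PU.1 sites, was found on either strand in 0 of 18 windows and for 3.69% of all genes. These are matches of letters only. A stretch from 150 bases before to the first 20 bases from the start is given for 5 members, with CACGTG in capitals. The first 4 are V-ATPase genes that carry the motif there, and the last is Rragd, the Rag gene with the largest changes, whose window held none of the 4 patterns.
Atp6v1a, chr16:44139240-44139409, minus strand: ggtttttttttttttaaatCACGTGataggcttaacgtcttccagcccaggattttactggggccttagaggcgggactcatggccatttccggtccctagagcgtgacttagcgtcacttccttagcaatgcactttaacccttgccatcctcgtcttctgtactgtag
Atp6v0b, chr4:117887310-117887479, minus strand: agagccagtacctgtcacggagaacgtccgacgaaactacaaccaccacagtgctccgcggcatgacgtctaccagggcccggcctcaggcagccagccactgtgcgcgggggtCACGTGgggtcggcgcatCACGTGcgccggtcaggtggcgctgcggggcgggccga
Atp6v0d1, chr8:105566045-105566214, minus strand: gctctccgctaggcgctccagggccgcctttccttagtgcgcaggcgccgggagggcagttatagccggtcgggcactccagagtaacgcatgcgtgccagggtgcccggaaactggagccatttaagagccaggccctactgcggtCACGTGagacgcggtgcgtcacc
Atp6v0e, chr17:26676246-26676415, plus strand: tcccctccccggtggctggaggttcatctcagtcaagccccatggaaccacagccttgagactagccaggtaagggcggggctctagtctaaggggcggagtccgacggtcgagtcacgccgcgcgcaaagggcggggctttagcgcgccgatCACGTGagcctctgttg
Rragd, chr4:32982848-32983017, plus strand: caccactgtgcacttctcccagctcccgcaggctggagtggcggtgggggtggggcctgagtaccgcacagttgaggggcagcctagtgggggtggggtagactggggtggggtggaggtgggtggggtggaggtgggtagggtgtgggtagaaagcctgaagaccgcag

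Atp6v0d2 was among the most abundant transcripts of these cells and was higher in the DON libraries than in either other group. The gene lies on chromosome 4 from 19876841 to 19922605 on the minus strand, in the GENCODE vM21 annotation of GRCm38. It had 3456 and 3486 CPM in the DON libraries, 2315 and 2410 CPM in the GM-CSF libraries and 2563 and 2637 CPM in the no-GM-CSF libraries. Both DON libraries lay above the other 4, and the GM-CSF libraries lay just below those without GM-CSF, with no overlap between any groups. The log2 fold change with DON over GM-CSF was 0.55 ± 0.04 (SE), or 1.47-fold (adjusted p = 9.56e-07 in the quasi-likelihood test of edgeR, with Benjamini-Hochberg adjustment over all genes). DON libraries were also above those without GM-CSF, by 0.42 ± 0.04 (adjusted p = 4.81e-06 in the same edgeR test). GM-CSF alone gave a small fall of -0.14 ± 0.04 against no GM-CSF (adjusted p = 0.00725 in edgeR). This last call was lost when libraries were scaled to total counts without TMM (-0.02, adjusted p = 0.694) and without no-GM-CSF replicate 2 (-0.12, adjusted p = 0.0704). Atp6v0d2 took 0.349% and 0.357% of all counts in the DON, 0.239% and 0.249% in the GM-CSF and 0.242% and 0.252% in the no-GM-CSF libraries.

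Levels of different genes were compared per transcript length, with the authors' FPKM, a fragment count scaled by gene length and library size. Atp6v0d2 averaged 1469.8 ± 8.31 FPKM in the DON, 1010 ± 29.7 FPKM in the GM-CSF and 1106 ± 19.2 FPKM in the no-GM-CSF libraries (SD, n = 2 each). By FPKM it ranked 52nd and 49th among all genes in the DON libraries, 90th and 82nd in the GM-CSF libraries and 87th and 84th in the no-GM-CSF libraries. Among the 19 V-ATPase genes it was second in every group, after the proton-carrying ring subunit Atp6v0c. The mean FPKM of Atp6v0c exceeded that of Atp6v0d2 1.27-fold in the DON, 1.82-fold in the GM-CSF and 2.00-fold in the no-GM-CSF libraries. The 14 subunits treated as common to most cells had group means from 72.9 FPKM (Atp6v1h) to 1865 FPKM (Atp6v0c) in the DON, from 80.3 to 1836 FPKM in the GM-CSF and from 71.9 to 2207 FPKM in the no-GM-CSF libraries. Atp6v0d2 stood 4.42-fold, 3.54-fold and 3.80-fold above the median of these 14 in FPKM, in the same order of groups. Annotated pseudogenes of Atp6v0c, Atp6v0c-ps1 and Atp6v0c-ps2, could share its reads.

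**Figure D1:**
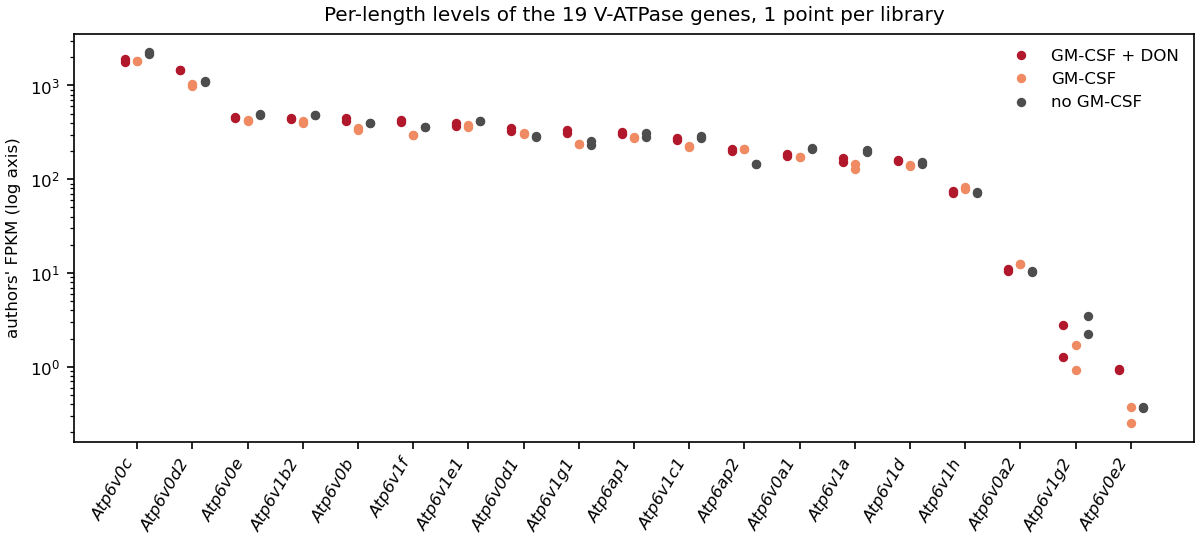
Authors' FPKM (log axis) of the 19 V-ATPase genes in each of the 6 libraries, 1 point per library, with genes ordered by their mean in the DON libraries. Atp6v0c and Atp6v0d2 stand above the other genes in all 3 groups, and Atp6v0a2, Atp6v1g2 and Atp6v0e2 lie far below them.

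The contrast of Atp6v0d2 with the common subunits was made by refitting all genes with the summed counts of the 14 common subunits as the library size. Abundant subunits weigh most in such a sum. In no-GM-CSF replicate 1, Atp6v0c gave 65107 and Atp6v1b2 41014 of its 240259 counts. The 14 summed to 7420 and 7090 CPM in the DON, 6513 and 6617 CPM in the GM-CSF and 7385 and 7594 CPM in the no-GM-CSF libraries. The log2 ratio of Atp6v0d2 counts to their sum was -1.10 and -1.02 in the DON, -1.49 and -1.46 in the GM-CSF and -1.53 and -1.53 in the no-GM-CSF libraries. The DON libraries had the highest ratios, and no groups overlapped. Relative to the common subunits, Atp6v0d2 rose with DON over GM-CSF by 0.41 ± 0.04 on the log2 scale, or 1.33-fold (adjusted p = 1.19e-05, edgeR). Over no GM-CSF the rise with DON was 0.46 ± 0.04 (adjusted p = 4.86e-06, edgeR). These calls held in every alternative tried, although with Atp6v0d1 alone in place of the 14 the rise over no GM-CSF was 0.16 (adjusted p = 0.0176, edgeR). The difference between GM-CSF and no GM-CSF, 0.05 ± 0.04, did not pass the edgeR test (adjusted p = 0.270), and its sign depended on which subunits were used. It was 0.13 with the V1 common subunits alone (adjusted p = 0.010) and -0.25 with Atp6v0d1 alone (adjusted p = 0.00147). In this fit 57.7% of all genes were called for DON over GM-CSF, 53.8% for DON over no GM-CSF and 58.7% for GM-CSF over no GM-CSF, so an unequal change against the pump was common among genes. Other members that rose against the common subunits with DON over GM-CSF included Atp6v0e2 (1.48 ± 0.32), Rragd (0.94 ± 0.08), Atp6v1f (0.37 ± 0.05) and Atp6v1g1 (0.33 ± 0.05). With DON over no GM-CSF they included Atp6ap2 (0.54 ± 0.04), Atp6v1g1 (0.47 ± 0.05) and Atp6v0d1 (0.31 ± 0.04), all among the 14 common subunits. Atp6v0e2 rose more than any of these, while Atp6v0a1, Atp6v0c and Atp6v1a fell. A rise over no GM-CSF as large as that of Atp6v0d2 was therefore not particular to it.

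The d1 isoform, Atp6v0d1, is the direct counterpart of d2 at the stalk that joins the V0 and V1 sectors. It had 505 and 475 CPM in the DON, 446 and 437 CPM in the GM-CSF and 402 and 414 CPM in the no-GM-CSF libraries. The order of groups was DON, GM-CSF, no GM-CSF, with no overlap. It changed by 0.15 ± 0.04 with DON over GM-CSF (adjusted p = 0.0130, edgeR) and 0.11 ± 0.04 with GM-CSF over none (adjusted p = 0.0439, edgeR). The smaller of these calls was lost in 6 of 14 alternatives, including without any 1 of the 4 libraries compared (adjusted p between 0.0568 and 0.192). The call with DON was lost without GM-CSF replicate 2 (adjusted p = 0.0633) and without DON replicate 1 (adjusted p = 0.0997). Per length, Atp6v0d2 exceeded Atp6v0d1 4.19-fold and 4.497-fold in the DON libraries, 3.18-fold and 3.38-fold in the GM-CSF libraries and 3.91-fold and 3.89-fold in the no-GM-CSF libraries.

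**Figure D2:**
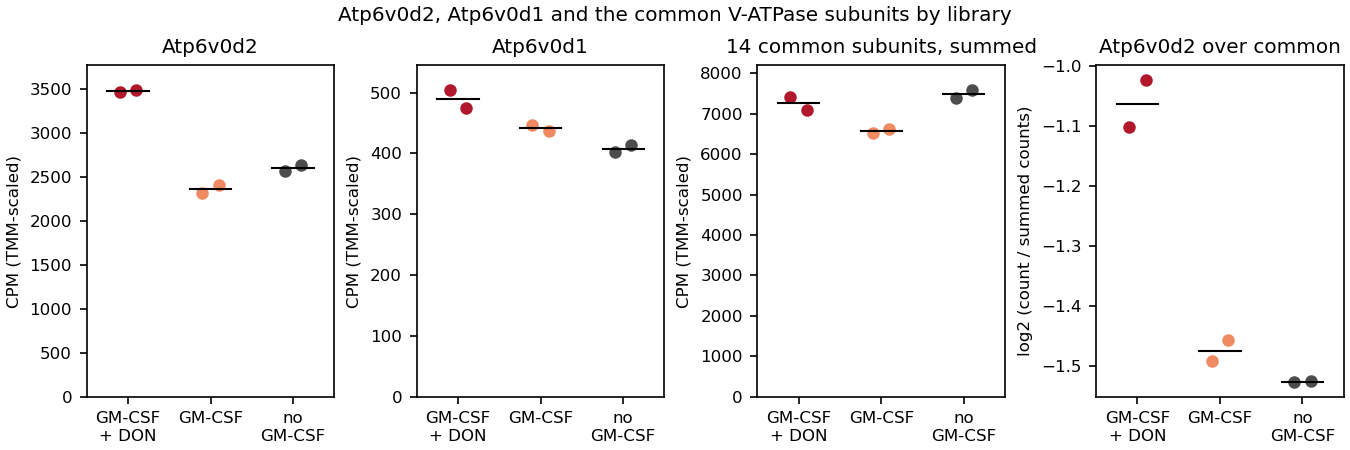
Atp6v0d2, Atp6v0d1 and the summed 14 common subunits in CPM (TMM-scaled, axes from 0), and the log2 ratio of Atp6v0d2 counts to the summed common subunits. Points are libraries and lines are means of 2. The DON libraries have the highest Atp6v0d2 level and the highest ratio, while the summed subunits are lowest in the GM-CSF libraries.

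With DON over GM-CSF, 15 of the 25 members were higher and 4 lower at an adjusted p under 0.05 in edgeR, where 57.6% of all genes tested were called (28.8% higher and 28.8% lower). The median log2 fold change was 0.13 over the members and 0.01 over all genes. The changes were small: at 1.5-fold or more, 2 members were higher, Atp6v0e2 and Rragd, where 12% of all genes were higher and 10.3% lower by that rule. The lowest log2 fold change of a member was -0.28, so none fell that far. With GM-CSF over no GM-CSF, 7 members were higher and 14 lower, where 56.8% of all genes were called (27.5% higher and 29.3% lower). The median was -0.16 over the members and -0.02 over all genes. At 1.5-fold or more, 1 member was higher (Rragb) and 2 lower (Rragd and Atp6v1g2), against 9.8% and 13.1% of all genes. Scaling to total counts without TMM moved the median of all genes by 0.12 in this comparison and left 7 members higher and 8 lower, so the split depends on the scaling. Members called higher with GM-CSF numbered 4 without no-GM-CSF replicate 1 and 3 without GM-CSF replicate 2, and members called lower with DON over GM-CSF numbered 1 without DON replicate 2. These comparisons share the GM-CSF libraries, so a high or low value there moves them in opposite directions.

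Set directly against no GM-CSF, the DON libraries differed in 11 members, 7 higher and 4 lower, where 55.6% of all genes were called (27.2% higher and 28.4% lower). The median was 0.02 over the members and 0.01 over all genes. Without TMM the split was 10 higher and 3 lower. The 7 were Atp6v0d2, Atp6v0d1, Atp6v0b, Atp6v0e2, Atp6v1f, Atp6v1g1 and Atp6ap2, and the 4 were Atp6v0a1, Atp6v0c, Atp6v1a and Atp6v1b2. The call of Atp6v0b (0.13, adjusted p = 0.0384, edgeR) was lost in 8 of 14 alternatives, with adjusted p up to 0.262 without DON replicate 1. That of Atp6v1b2 (-0.11, adjusted p = 0.0324, edgeR) was lost in 6 of 14, with adjusted p up to 0.753 for total counts without TMM. None of the 6 Ragulator and Rag members passed the edgeR test in this comparison. The number with an unadjusted p under 0.05 was 0 of 6 in edgeR and 0 of 6 in DESeq2, which called 0 of them. Lamtor4, a Ragulator subunit that is not a member because it has an older symbol, was lower (-0.47 ± 0.07, adjusted p = 0.000184, edgeR).

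**Figure D3:**
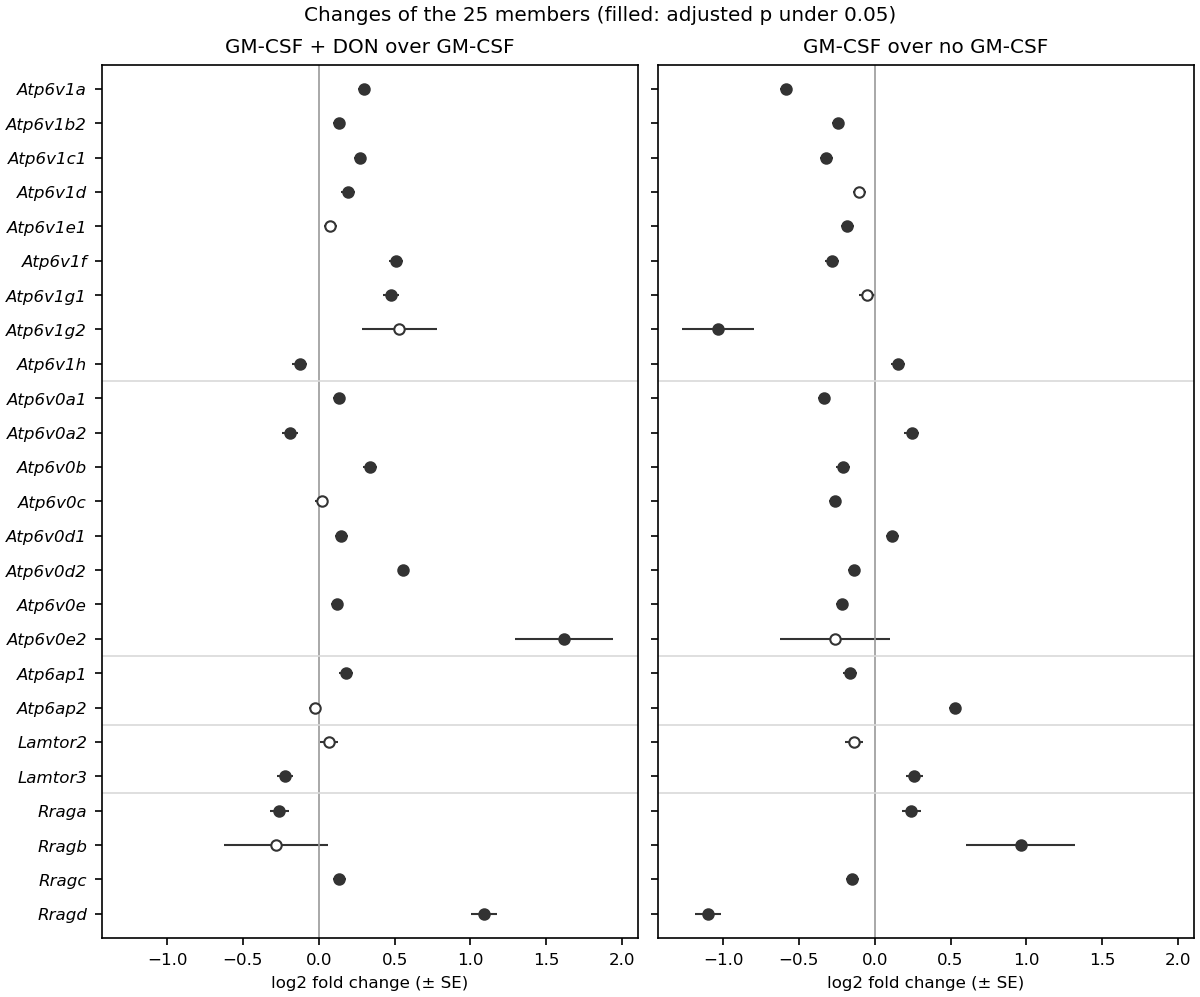
Log2 fold changes ± SE of the 25 members in edgeR, for DON with GM-CSF over GM-CSF and for GM-CSF over no GM-CSF, grouped as V1 sector, V0 sector, accessory proteins, Ragulator and Rag GTPases. Filled points passed an adjusted p of 0.05. Most V-ATPase points lie right of 0 in the first panel and left of 0 in the second, and Rragd stands far from 0 in both.

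In the V1 sector, 6 of 9 members rose with DON over GM-CSF and 1 fell, where 28.8% of all genes rose and 28.8% fell. With GM-CSF over none 1 rose and 6 fell, where 27.5% of all genes rose and 29.3% fell. The catalytic A subunit, Atp6v1a, had 551 and 567 CPM in the DON, 443 and 467 CPM in the GM-CSF and 691 and 674 CPM in the no-GM-CSF libraries. The no-GM-CSF libraries were highest and the GM-CSF libraries lowest, with no overlap. Its log2 fold change was 0.30 ± 0.04 with DON over GM-CSF (adjusted p = 0.000165) and -0.58 ± 0.04 with GM-CSF over none (adjusted p = 1.26e-06, both edgeR). Against no GM-CSF, the DON libraries were lower by -0.29 ± 0.04 (adjusted p = 0.000206, edgeR). Its promoter, given above, is one of the 3 with TCACGTGA, and its CACGTG begins 131 bases before the RefSeq start.

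The F subunit of the central stalk, Atp6v1f, had 222 and 211 CPM in the DON, 152 and 152 CPM in the GM-CSF and 184 and 185 CPM in the no-GM-CSF libraries. The DON libraries were highest and the groups did not overlap. It changed by 0.51 ± 0.04 with DON over GM-CSF (adjusted p = 6.42e-06) and -0.28 ± 0.04 with GM-CSF over none (adjusted p = 0.000330, both edgeR). The stator subunit Atp6v1g1 had 322 and 299 CPM in the DON, 225 and 222 CPM in the GM-CSF and 222 and 242 CPM in the no-GM-CSF libraries. The DON libraries stood above the other 4, which overlapped between groups. It rose by 0.47 ± 0.05 with DON over GM-CSF (adjusted p = 4.26e-05, edgeR), and its change with GM-CSF, -0.05 ± 0.05, did not pass (adjusted p = 0.434). Its isoform Atp6v1g2, known mainly from neurons, was at 1.75 and 2.52 CPM in the DON, 1.61 and 1.34 CPM in the GM-CSF and 3.29 and 2.79 CPM in the no-GM-CSF libraries. These are low levels, highest without GM-CSF. The fall with GM-CSF was -1.03 ± 0.24 (adjusted p = 0.00406, edgeR). It was lost in limma on the authors' FPKM (adjusted p = 0.0809), where the transcript length implied for this gene varied between libraries by a CV of 21.7%.

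The H subunit, Atp6v1h, which regulates coupling of the sectors, was the V1 member that moved the other way. It had 133 and 129 CPM in the DON, 139 and 147 CPM in the GM-CSF and 127 and 130 CPM in the no-GM-CSF libraries. The GM-CSF libraries were highest, and the other groups overlapped each other. The changes were small, -0.13 ± 0.05 with DON over GM-CSF (adjusted p = 0.0418) and 0.15 ± 0.05 with GM-CSF over none (adjusted p = 0.0185, both edgeR). The first was lost in 5 of 14 alternatives and the second after leaving out either no-GM-CSF replicate 1 (adjusted p = 0.0736) or GM-CSF replicate 2 (adjusted p = 0.136). Of the remaining V1 members, Atp6v1b2, the B subunit of most cells, averaged 1169 ± 24.4 CPM in the DON, 1067 ± 41.1 CPM in the GM-CSF and 1264 ± 4.29 CPM in the no-GM-CSF libraries. Atp6v1b2 and the C subunit Atp6v1c1 rose with DON over GM-CSF, by 0.13 ± 0.04 and 0.27 ± 0.04, and fell with GM-CSF over none, by -0.24 ± 0.04 and -0.32 ± 0.04. The rise of Atp6v1b2 was lost in 3 of 14 alternatives, with adjusted p up to 0.0979 without GM-CSF replicate 1. Atp6v1d rose with DON (0.19 ± 0.04) and Atp6v1e1 fell with GM-CSF (-0.18 ± 0.04), and their other changes, -0.10 and 0.08, did not pass. The fall of Atp6v1e1 was lost with total counts without TMM (-0.06, adjusted p = 0.229).

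In the V0 sector, 6 of 8 members rose with DON over GM-CSF and 1 fell, where 28.8% of all genes rose and 28.8% fell. With GM-CSF over none 2 rose and 5 fell, where 27.5% of all genes rose and 29.3% fell. The a subunit, which steers the pump to its membrane, is present as several isoforms. Atp6v0a1 had 651 and 627 CPM in the DON, 585 and 581 CPM in the GM-CSF and 748 and 720 CPM in the no-GM-CSF libraries. The no-GM-CSF libraries were highest and the GM-CSF libraries lowest. Its log2 fold change was 0.13 ± 0.04 with DON over GM-CSF (adjusted p = 0.0142) and -0.33 ± 0.04 with GM-CSF over none (adjusted p = 4.83e-05, both edgeR). The first was lost in limma on the authors' FPKM (0.07, adjusted p = 0.251), without GM-CSF replicate 2 (adjusted p = 0.0511) and without DON replicate 1 (adjusted p = 0.0881). Atp6v0a2, an isoform of the Golgi and endosomes, had 56.4 and 54.2 CPM in the DON, 63.4 and 62.7 CPM in the GM-CSF and 53.7 and 52.8 CPM in the no-GM-CSF libraries. Here the GM-CSF libraries were highest. It changed by -0.19 ± 0.05 with DON over GM-CSF (adjusted p = 0.00809) and by 0.24 ± 0.05 with GM-CSF over none (adjusted p = 0.00195, both edgeR). The first of these calls was lost without DON replicate 2 (adjusted p = 0.0601).

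The a3 isoform, found in lysosomes and in the osteoclast plasma membrane, is encoded by Tcirg1, whose symbol keeps it out of the 25 members. Tcirg1 had 462 and 418 CPM in the DON, 458 and 432 CPM in the GM-CSF and 707 and 759 CPM in the no-GM-CSF libraries. Both groups given GM-CSF were low and overlapped each other. It changed by -0.02 ± 0.06 with DON over GM-CSF (adjusted p = 0.809) and -0.72 ± 0.06 with GM-CSF over none (adjusted p = 2.71e-06, both edgeR). Per length, Tcirg1 exceeded Atp6v0a1 1.41-fold and 1.24-fold in the DON libraries, 1.57-fold and 1.42-fold in the GM-CSF libraries and 1.88-fold and 2.11-fold in the no-GM-CSF libraries. The ratio of their counts was 0.709 and 0.667 in the DON, 0.784 and 0.745 in the GM-CSF and 0.946 and 1.05 in the no-GM-CSF libraries. Whether the length implied for Tcirg1 varied between libraries was not tested. Over the 6 libraries, the ratio of Atp6v0a2 to Atp6v0a1 in FPKM lay between 0.0488 and 0.0724.

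The small e subunit showed the largest fold change among the members. Atp6v0e2 had 1.57 and 1.54 CPM in the DON, 0.411 and 0.604 CPM in the GM-CSF and 0.615 and 0.594 CPM in the no-GM-CSF libraries. The DON libraries were highest and the other groups overlapped. It rose by 1.62 ± 0.32 with DON over GM-CSF (adjusted p = 0.00171, edgeR), a call that held in every alternative tried. The level was low throughout. Its counterpart Atp6v0e had 285 and 273 CPM in the DON, 254 and 260 CPM in the GM-CSF and 297 and 300 CPM in the no-GM-CSF libraries. Its change with DON over GM-CSF, 0.12 ± 0.04 (adjusted p = 0.0314, edgeR), was lost in 7 of 14 alternatives, with adjusted p up to 0.167. Its fall with GM-CSF over none was -0.22 ± 0.04 (adjusted p = 0.00129, edgeR), and was lost with total counts without TMM (-0.10, adjusted p = 0.0653).

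The ring subunits differed from each other. Atp6v0b had 347 and 320 CPM in the DON, 266 and 261 CPM in the GM-CSF and 305 and 306 CPM in the no-GM-CSF libraries. The DON libraries were highest and the GM-CSF libraries lowest, with no overlap. It rose by 0.34 ± 0.05 with DON over GM-CSF (adjusted p = 0.000139, edgeR) and fell by 0.21 on the log2 scale with GM-CSF over none (adjusted p = 0.00282, edgeR). The fall was lost with total counts without TMM (-0.09, adjusted p = 0.0953). Atp6v0c had 1791 and 1681 CPM in the DON, 1725 and 1703 CPM in the GM-CSF and 2001 and 2108 CPM in the no-GM-CSF libraries. Both groups given GM-CSF lay below the no-GM-CSF group and overlapped each other. Its change was 0.02 ± 0.04 with DON over GM-CSF (adjusted p = 0.727) and -0.26 ± 0.04 with GM-CSF over none (adjusted p = 0.000435, both edgeR).

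The accessory proteins assist assembly and sorting of the pump. Atp6ap2, also known as the prorenin receptor, had 446 and 428 CPM in the DON, 443 and 448 CPM in the GM-CSF and 308 and 311 CPM in the no-GM-CSF libraries. Both groups given GM-CSF stood above the group without it and overlapped each other. The log2 fold change was -0.03 ± 0.04 with DON over GM-CSF (adjusted p = 0.563) and 0.53 ± 0.04 with GM-CSF over none (adjusted p = 1.75e-06, both edgeR), and the second is the largest rise with GM-CSF among V-ATPase members. Atp6ap1 had 506 and 475 CPM in the DON, 427 and 437 CPM in the GM-CSF and 470 and 497 CPM in the no-GM-CSF libraries. Its GM-CSF libraries were lowest, with the other groups overlapping. It changed by 0.18 ± 0.05 with DON over GM-CSF (adjusted p = 0.00678) and by -0.16 ± 0.05 with GM-CSF over none (adjusted p = 0.0124, both edgeR). The first was lost in limma on the authors' FPKM (adjusted p = 0.0562) and without DON replicate 1 (adjusted p = 0.0612), and the second in 4 of 14 alternatives.

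Among the Rag GTPases, Rragd changed most. It encodes RagD, which pairs with RagA or RagB. It had 24.2 and 21.9 CPM in the DON, 11.0 and 10.6 CPM in the GM-CSF and 21.9 and 24.5 CPM in the no-GM-CSF libraries. Both GM-CSF libraries lay far below the other 4, and the other groups overlapped. The log2 fold change was 1.09 ± 0.09 with DON over GM-CSF, or 2.13-fold (adjusted p = 4.46e-06), and -1.10 ± 0.09 with GM-CSF over none (adjusted p = 2.98e-06, both edgeR). With DON over no GM-CSF it was -0.01 ± 0.08 (adjusted p = 0.922, edgeR). Both called changes held in every alternative tried.

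RagC is the alternative to RagD in the heterodimer. Rragc had 421 and 424 CPM in the DON, 396 and 374 CPM in the GM-CSF and 418 and 436 CPM in the no-GM-CSF libraries. The GM-CSF libraries were again lowest, by a small margin. The log2 fold change was 0.13 ± 0.04 with DON over GM-CSF (adjusted p = 0.0221) and -0.15 ± 0.04 with GM-CSF over none (adjusted p = 0.0132, both edgeR). Both were lost with total counts without TMM (adjusted p up to 0.595) and without GM-CSF replicate 2, the first in 5 and the second in 3 of 14 alternatives. Per length, Rragc exceeded Rragd 35.1-fold and 39.2-fold in the DON libraries, 68.5-fold and 69.0-fold in the GM-CSF libraries and 38.3-fold and 36.0-fold in the no-GM-CSF libraries.

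Rraga, which encodes RagA, had 51.8 and 46.3 CPM in the DON, 57.9 and 59.6 CPM in the GM-CSF and 49.2 and 50.2 CPM in the no-GM-CSF libraries. The GM-CSF libraries were highest, and the other groups overlapped. It changed by -0.26 ± 0.06 with DON over GM-CSF (adjusted p = 0.00472) and by 0.24 ± 0.06 with GM-CSF over none (adjusted p = 0.00710, both edgeR). The second call was lost without GM-CSF replicate 2 (adjusted p = 0.0551). Rragb, encoding the close relative RagB, had 20 and 20 counts in the DON, 28 and 23 counts in the GM-CSF and 12 and 15 counts in the no-GM-CSF libraries. Its rise with GM-CSF over none, 0.96 ± 0.36 (adjusted p = 0.0439, edgeR), was lost in 10 of 13 alternatives. At this depth the gene was detected in every library at under 1 CPM.

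Ragulator has 5 subunits, of which 2 carry a Lamtor symbol in the table. Lamtor2 had 71.3 and 65.7 CPM in the DON, 67.7 and 62.9 CPM in the GM-CSF and 72.6 and 70.8 CPM in the no-GM-CSF libraries. It passed the edgeR test in no comparison (adjusted p = 0.353, 0.0787 and 0.373 for DON over GM-CSF, GM-CSF over none and DON over none). Lamtor3 had 116 and 111 CPM in the DON, 137 and 128 CPM in the GM-CSF and 108 and 113 CPM in the no-GM-CSF libraries. The GM-CSF libraries were highest. It changed by -0.22 ± 0.05 with DON over GM-CSF (adjusted p = 0.00503) and by 0.26 ± 0.05 with GM-CSF over none (adjusted p = 0.00192, both edgeR). The first was lost without GM-CSF replicate 1 and without DON replicate 2 (adjusted p up to 0.0552).

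The other 3 Ragulator subunits are listed under older symbols, which RefSeq gives as synonyms, and so are not members. The anchor of the complex, Lamtor1 (2400001E08Rik), had 229 and 219 CPM in the DON, 173 and 161 CPM in the GM-CSF and 211 and 220 CPM in the no-GM-CSF libraries. The GM-CSF libraries were lowest and the other groups overlapped. Its log2 fold change was 0.42 ± 0.05 with DON over GM-CSF (adjusted p = 5.74e-05) and -0.37 ± 0.05 with GM-CSF over none (adjusted p = 0.000132, both edgeR). Lamtor4 (0910001L09Rik) was lower in both groups given GM-CSF, with 40.9 and 38.4 CPM in the DON, 41.0 and 36.4 CPM in the GM-CSF and 55.5 and 54.5 CPM in the no-GM-CSF libraries. Its change with GM-CSF over none was -0.51 ± 0.07 (adjusted p = 0.000106, edgeR). Lamtor5 (Hbxip) averaged 59.6 ± 1.62 CPM in the DON, 62.8 ± 0.969 CPM in the GM-CSF and 57.4 ± 1.03 CPM in the no-GM-CSF libraries. Over all 5 subunits, 1 rose and 1 fell with DON over GM-CSF (57.6% of all genes called), and 2 rose and 2 fell with GM-CSF over none (56.8% of all genes called). With DON over no GM-CSF 0 rose and 1 fell, Lamtor4 (55.6% of all genes called).

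**Figure D4:**
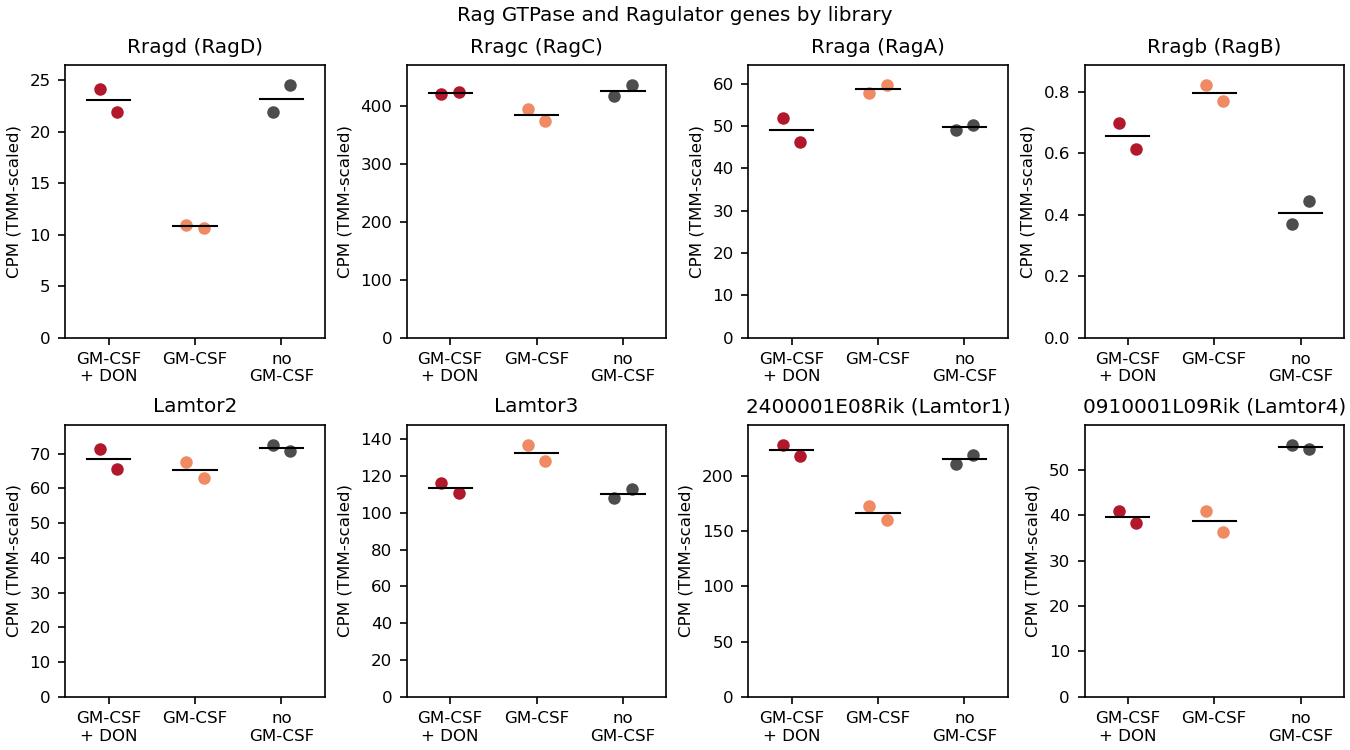
CPM (TMM-scaled, axes from 0) of the 4 Rag GTPase genes and of 4 Ragulator genes by library, with lines at means of 2 libraries and current names in parentheses. Rragd and 2400001E08Rik are lowest in the GM-CSF libraries, Rraga and Lamtor3 are highest there, and 0910001L09Rik is highest without GM-CSF.

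Genes that act with the pump and the Rag GTPases were read from lists made from general knowledge. Each list was set against all genes tested. For DON over GM-CSF 57.6% of these were called (28.8% higher and 28.8% lower). For GM-CSF over none 56.8% were called (27.5% higher and 29.3% lower). Among 9 lysosomal ion channel genes, 4 rose and 2 fell with DON over GM-CSF, and 3 rose and 5 fell with GM-CSF over none, or 6 and 8 of 9 called against 57.6% and 56.8% of all genes. Mcoln1, the calcium channel of the lysosomal membrane, had 195 and 192 CPM in the DON, 83.0 and 84.0 CPM in the GM-CSF and 117 and 118 CPM in the no-GM-CSF libraries. The DON libraries were highest, and the log2 fold change was 1.21 ± 0.04 over GM-CSF (adjusted p = 3.91e-08) and 0.72 ± 0.04 over no GM-CSF (adjusted p = 3.57e-07, both edgeR). The chloride-proton exchanger Clcn7 had 307 and 298 CPM in the DON, 186 and 187 CPM in the GM-CSF and 293 and 289 CPM in the no-GM-CSF libraries. Its GM-CSF libraries were lowest, with 0.70 ± 0.04 for DON over GM-CSF (adjusted p = 5.19e-07) and -0.64 ± 0.04 for GM-CSF over none (adjusted p = 5.00e-07, both edgeR). The channel gene Tpcn1 changed by -0.98 ± 0.09 with DON over GM-CSF and by -1.07 ± 0.08 with GM-CSF over none.

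Among 11 genes of V-ATPase assembly and regulation, 4 rose and 2 fell with DON over GM-CSF, and 2 rose and 6 fell with GM-CSF over none. The 6 of 11 called with DON lay near the 57.6% of all genes, and 8 of 11 were called with GM-CSF, against 56.8%. Vma21, an assembly factor of the V0 sector, changed by -0.45 ± 0.05 and 0.29 ± 0.05 in these comparisons. Dmxl2, a rabconnectin that helps V1 join V0, changed by 0.62 ± 0.10 and -0.81 ± 0.10, and Ncoa7, which binds the pump, by 0.40 ± 0.11 and -0.70 ± 0.11. The rise of Ncoa7 was lost in 3 of 14 alternatives, with adjusted p up to 0.104 without DON replicate 2.

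Among 10 amino acid sensors and Rag regulators, 4 rose and 1 fell with DON over GM-CSF, and 2 rose and 6 fell with GM-CSF over none. That is 5 and 8 of 10 called, against 57.6% and 56.8% of all genes. Sesn2, a leucine sensor that restrains mTORC1 and a target of the amino acid stress response, had 119 and 117 CPM in the DON, 34.3 and 39.0 CPM in the GM-CSF and 23.7 and 26.7 CPM in the no-GM-CSF libraries. The DON libraries were far above the rest. On the log2 scale it changed by 1.69 ± 0.07 with DON over GM-CSF (adjusted p = 9.43e-08) and 0.54 ± 0.08 with GM-CSF over none (adjusted p = 0.000197, both edgeR). The lysosomal arginine sensor Slc38a9 rose by 0.73 ± 0.08 with DON over GM-CSF, and Flcn, the activating protein for RagC and RagD, rose by 0.46 ± 0.05. Sesn1 and the folliculin partner Fnip2 fell with GM-CSF, by -1.16 ± 0.11 and -0.76 ± 0.06, and their changes with DON over GM-CSF, 0.10 ± 0.12 and 0.01 ± 0.06, did not pass the edgeR test.

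GATOR1 and KICSTOR restrain the Rag GTPases and GATOR2 opposes GATOR1. Of 7 GATOR1 and KICSTOR genes, 3 rose and 1 fell with DON over GM-CSF, with Nprl3 and Nprl2 at 0.63 ± 0.09 and 0.53 ± 0.09 and Itfg2 at -0.48 ± 0.12. Of 5 GATOR2 genes, 2 rose and 1 fell. The 4 of 7 and 3 of 5 called lay near the 57.6% of all genes. The call of Itfg2 was lost without GM-CSF replicate 1 (adjusted p = 0.0501). Sec13, shared with COPII vesicles and the nuclear pore, was at -0.57 ± 0.06 with DON over GM-CSF and 0.49 ± 0.06 with GM-CSF over none, and Wdr24 rose by 0.40 ± 0.12 with DON, a call lost in 3 of 14 alternatives (adjusted p up to 0.174, in limma on the authors' FPKM). With GM-CSF over none, 1 of the 7 GATOR1 and KICSTOR genes rose and 2 fell. Of the 5 GATOR2 genes 3 rose and 0 fell, where 27.5% of all genes rose and 29.3% fell. Among these calls, that of Nprl3 was lost in 5, that of Seh1l in 4 and that of Itfg2 in 2 of 14 alternatives. Of 9 mTORC1 and TSC genes, 5 rose and 2 fell with DON over GM-CSF, and 3 fell with GM-CSF over none. In these comparisons 57.6% and 56.8% of all genes were called. For GM-CSF over none edgeR called 0 of the 9 higher, with 2 higher at an unadjusted p under 0.05, and DESeq2 also called 0 higher. Mlst8, a subunit shared by both mTOR complexes, and Tsc2 rose with DON by 0.58 ± 0.08 and 0.30 ± 0.05. Deptor, an mTOR inhibitor, fell by 0.83 on the log2 scale with GM-CSF, and its change of 0.22 ± 0.08 with DON (adjusted p = 0.0418, edgeR) was lost in 8 of 14 alternatives. Mtor itself had 32.5 and 37.9 CPM in the DON, 35.9 and 37.6 CPM in the GM-CSF and 42.4 and 33.5 CPM in the no-GM-CSF libraries, with overlapping groups and no call.

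MiT/TFE factors bind E-boxes such as those shown above and drive lysosomal genes. Of the 4, 1 rose and 1 fell with DON over GM-CSF, and 1 rose and 3 fell with GM-CSF over none, beside 57.6% and 56.8% of all genes called. Tfeb had 165 and 160 CPM in the DON, 119 and 119 CPM in the GM-CSF and 138 and 136 CPM in the no-GM-CSF libraries, and rose with DON over GM-CSF by 0.45 ± 0.04 (adjusted p = 1.52e-05, edgeR). Its fall with GM-CSF over none, -0.20 ± 0.04, was lost with total counts without TMM and in limma on the authors' FPKM (adjusted p up to 0.312). Tfec moved the other way, with 70.9 and 68.8 CPM in the DON, 95.5 and 95.5 CPM in the GM-CSF and 40.1 and 41.8 CPM in the no-GM-CSF libraries. Its GM-CSF libraries were highest, with -0.45 ± 0.05 and 1.22 ± 0.05 in these comparisons. Tfe3 fell by 0.45 with GM-CSF on the log2 scale, and its change with DON, -0.01 ± 0.05, did not pass, nor did that of Mitf, 0.13 ± 0.07.

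Atp6v0d2 is known as an osteoclast gene required for cell fusion, so other osteoclast and multinucleation genes were listed. Of 7 tested, 2 rose and 4 fell with DON over GM-CSF, and 2 rose and 4 fell with GM-CSF over none, or 6 of 7 called in each, against 57.6% and 56.8% of all genes. Cathepsin K (Ctsk) had 2378 and 2161 CPM in the DON, 1582 and 1642 CPM in the GM-CSF and 3922 and 3940 CPM in the no-GM-CSF libraries. Ctsk and the tartrate-resistant phosphatase Acp5 were highest without GM-CSF, with falls of -1.29 ± 0.05 and -1.17 ± 0.04 with GM-CSF and rises of 0.49 ± 0.05 and 0.39 ± 0.04 with DON over GM-CSF. Ocstamp, a membrane protein needed for osteoclast fusion, had 1.26 and 2.40 CPM in the DON, 9.01 and 12.3 CPM in the GM-CSF and 0.338 and 0.267 CPM in the no-GM-CSF libraries. It was highest with GM-CSF alone, at -2.52 ± 0.25 with DON over GM-CSF and 5.12 ± 0.34 with GM-CSF over none.

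**Figure D5:**
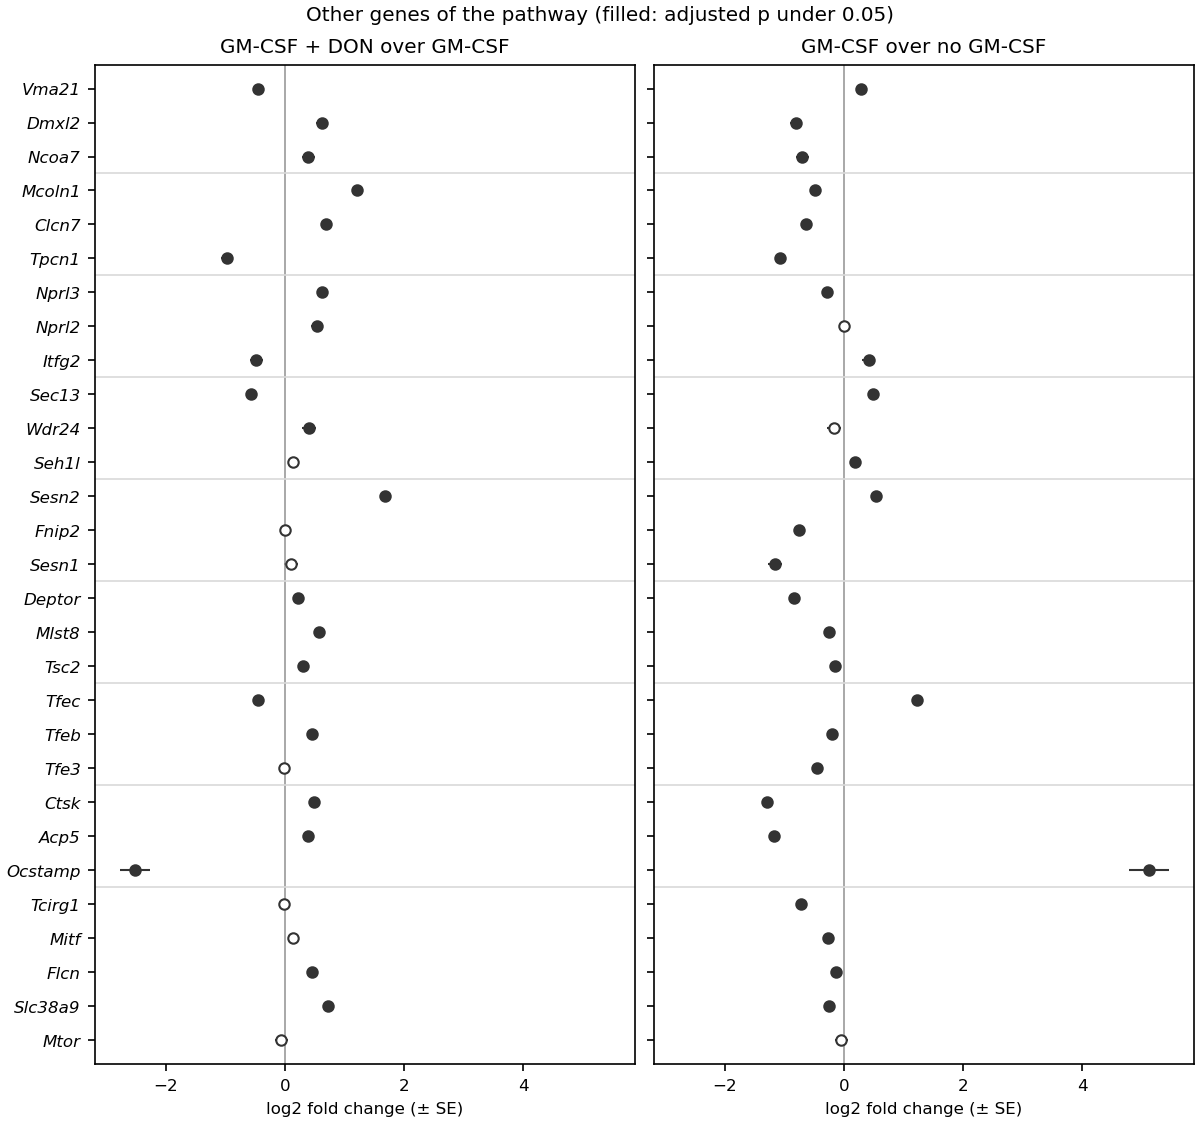
Log2 fold changes ± SE in edgeR of the named pathway genes that are not members, for DON with GM-CSF over GM-CSF and for GM-CSF over no GM-CSF, grouped by list. Filled points passed an adjusted p of 0.05. Sesn2 and Mcoln1 stand farthest right of 0 with DON, and Ocstamp is farthest from 0 in both panels.

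Exons of 6 members overlap exons of a gene on the opposite strand in GENCODE vM21, and reads of both cannot be told apart because the strand setting is not given. The shared part was 11.8% of exonic bases for Atp6v0b, 9.86% for Atp6v0a2, 7.90% for Rragc, 5.74% for Atp6v1g2, 1.30% for Atp6v1h and 0.779% for Atp6v1e1.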

How the data were processed

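RNA-seq of 6 libraries was used, 2 in each of 3 groups taken from the treatment labels and titles. The deposited count table holds whole-number counts per gene symbol, and a second deposited table holds FPKM made by the authors. The submitters' processing notes name the build mm10 and, as tools, DESeq2 (1.28.1), Subread (1.4.6), featureCounts and STAR (2.6.0a). The step each was used for, the annotation and the strand setting were not given in the sources used. Whether the counts were rounded estimates is not given either. For 2 members, Atp6v1g2 and Rragb, the length implied by counts and FPKM varied by a CV over 5% between libraries. Every column was used.

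Counts were analysed in R 4.3.3 with edgeR 4.0.16 and limma 3.58.1. A low-count filter, filterByExpr with a minimum of 10, left 12340 genes, and libraries were scaled by TMM (factors 0.945 to 1.03). A single quasi-likelihood model with 1 mean per group was fitted to all 6 libraries (3 residual and 6.74 prior degrees of freedom, common biological coefficient of variation 0.0501). Contrasts were two-sided with Benjamini-Hochberg adjustment over all genes, called at an adjusted p under 0.05, and in a second rule also at 1.5-fold or more. SDs are over 2 libraries and errors of log2 fold changes are SE. With 2 libraries against 2, an exact permutation test cannot go below p = 0.333, so none was run. The contrast with common subunits used the summed counts of 14 genes as library size. Replicates differed by more than sampling noise (chi-square per degree of freedom 4.50 to 8.46), so no library is a copy. The procedure was also run on simulated counts. Few genes were changed there, unlike in these data, so that run cannot test the scaling under broad change. Promoters came from RefSeq (GRCm38.p6) and coordinates from GENCODE vM21 on GRCm38. Python 3.11.15, pandas 2.3.3 and matplotlib 3.10.9 made tables and figures.

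Named genes were all members and, for other pathway lists, in each list the 3 genes of smallest adjusted p in either of the first comparisons, plus Tcirg1, Tfeb, Tfe3, Mitf, Flcn, Slc38a9 and Mtor. Members and lists were chosen with earlier results of these data known. Alternatives were other scalings, other count filters, DESeq2 1.42.0, limma on log2(FPKM + 0.1), fits of 4 libraries, a block on replicate number, leaving out each library and other sets of common subunits.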

Additional observations from a re-analysis of the deposited data

How the results depend on the processing

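Over members and comparisons, 965 results kept their side of the threshold, 76 lost the call and 6 gained one. Of the 965, the 637 that were called kept their direction, and 19 of the 328 that were not called changed sign. All alternatives kept 10 of 21 calls for GM-CSF over no GM-CSF, 10 of 19 for DON over GM-CSF and 9 of 11 for DON over no GM-CSF. The number of members lower with GM-CSF was 8 with total counts without TMM, against 14. Members called higher with GM-CSF numbered 3 to 6 when 1 library was left out, against 7, with 4 without no-GM-CSF replicate 1 and 3 without GM-CSF replicate 2. Members lower with DON over GM-CSF numbered 1 to 4, with 1 without DON replicate 2, and members called changed numbered 13 to 19, against 19. The cause was not tested. The Atp6v0d2 ratio for GM-CSF over no GM-CSF was 0.05 with the 14 common subunits, -0.25 with Atp6v0d1 alone and 0.13 with V1 subunits alone. Atp6v0d1 rose with GM-CSF, while the V1 subunits, most of which fell, are the reference in the last. The Atp6v0d2 ratio for DON over GM-CSF ran from 0.34 to 0.45 and that for DON over no GM-CSF from 0.16 (Atp6v0d1 alone) to 0.50 over all alternatives.

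The labels give groups the same replicate numbers. Replicate differences correlated at -0.05 between the no-GM-CSF and GM-CSF pairs, -0.29 between the no-GM-CSF and DON pairs and 0.06 between the GM-CSF and DON pairs, so the numbers were not taken to pair libraries. With the number as a replicate block, 19 members changed with GM-CSF over none, 17 with DON over GM-CSF and 10 with DON over none, and over all 12340 genes 6708, 6882 and 6542 did, against 7014, 7111 and 6859 without it. In a crossed pairing of DON with no GM-CSF, chosen after seeing the data, 12 members changed, 7 higher and 5 lower, with 6805 of all genes. With 2 libraries per group, changes near the SE of 0.04 to 0.05 of abundant members lie at the limit of these data, and Rragb, Atp6v0e2 and Atp6v1g2 are limited by counts.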
